A study of Mus musculus with 15 samples.

Results

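The T and cytotoxic lymphocyte genes described here are 10 genes, Cd3d, Cd3e, Cd3g, Cd4, Cd8a, Foxp3, Itgae, Gzma, Gzmb and Prf1, followed through microdissected mouse colon adenoma and colon epithelium. They were chosen by name: every non-control probe whose gene name in the scanner files is 1 of these symbols was taken. This gave 15 of the 41174 non-control probes and 10 of the 27768 features, which are genes at 1 probe each and probes without a gene name. No measured value entered that choice. Each gene is represented by its brightest probe on average, and the other probes are given where they bear on a value.

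The study hybridised 15 single-colour oligonucleotide arrays with RNA from cells cut out of mouse colon by laser microdissection. All mice were male Apc+/Min-FCCC animals on a C57BL/6J background, in which 1 copy of the tumor suppressor gene Apc is mutant in every cell and colon adenomas form. They were sorted by colonoscopy at 6 to 8 weeks of age and then ate their assigned chow for 7 days. The comparisons ask how the adenomas respond to the drugs, how epithelium differs between mice with and without tumors, and how adenoma differs from epithelium.

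The labels give 4 groups. Untreated adenoma came from tumor-bearing mice on plain chow (3 arrays). Treated adenoma came from tumor-bearing mice fed sulindac at 300 ppm, a cyclooxygenase-blocking anti-inflammatory drug, together with atorvastatin at 100 ppm, a cholesterol-lowering statin (4 arrays). Tumor-free epithelium came from mice without tumors fed atorvastatin alone at 100 ppm (4 arrays), and tumor-bearing epithelium is labelled as coming from tumor-bearing mice on the same atorvastatin diet (4 arrays). The protocol text describes no tumor-bearing mice on atorvastatin alone, so the label was followed for that group. Untreated adenoma therefore differed from epithelium in tissue and in atorvastatin, and treated adenoma differed from it in tissue and in sulindac. Epithelium is there the mean of both epithelium groups, so it also includes mice without tumors, which adenoma does not. These differences cannot be told apart. Tumor-free arrays were scanned on dates that no other group shares. Tumor status and scan date therefore cannot be told apart between the epithelium groups.

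T cells recognise antigen through a receptor whose signal is carried into the cell by the CD3 chains, while CD4 or CD8 acts as coreceptor on helper and on cytotoxic cells. Cytotoxic T cells and natural killer cells kill by releasing granules that hold perforin, which opens the target membrane, and granzymes, proteases that enter the target. The intestinal epithelium holds a resident population of such cells, the intraepithelial lymphocytes, many of which carry CD8 alpha and the integrin alpha E chain that binds E-cadherin on epithelial cells.

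Within groups, 6 array pairs differed by less than the spot noise (SD of the log2 difference 0.0858 to 0.170, against a noise of 0.188 to 0.218), whereas the other 15 pairs within groups differed by 0.595 to 1.12. Arrays of such a set were averaged to 1 sample. The untreated and the treated adenomas then have 2 samples each, and the epithelium of tumor-free and of tumor-bearing mice 3 each. Array 2 of the tumor-free epithelium and array 2 of the tumor-bearing epithelium, sample 2 of each group, were also close to each other although their labels differ (SD 0.183 against a noise of 0.178), and results are given without both of them where that moves a call. The share of probes well above background ran from 56.5% to 75.5% per array. All 9 epithelial markers (Epcam, Cdh1 and keratins among them) were well above background on every array, the 4 mature colonocyte markers were called lower in both adenoma groups than in epithelium, and 4 of 5 Wnt target genes were called higher there. Nothing in the labels says that arrays of a group came from separate animals, so p-values measure the spread between these samples only. In such bulk RNA, fewer cells of a type and less RNA per cell cannot be told apart.

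The probe is what was measured, and for several of these genes it decided whether there was a signal at all. Probes of 5 members are printed 5′ to 3′ in the sense of the transcript, with the build mm7 coordinates that the array design gives. They are shown because Cd3d, Cd3g and Itgae were read by 60-base probes whose genomic match spans 232, 585 and 1459 bases, so that the match is split over the genome, while those of Gzma and Prf1 span 60 bases.
Cd3d, chr9:44920433-44920664, plus strand: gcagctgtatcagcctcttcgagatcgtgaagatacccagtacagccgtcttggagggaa
Cd3g, chr9:44907978-44908562, minus strand: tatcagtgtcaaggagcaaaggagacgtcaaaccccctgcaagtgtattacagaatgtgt
Itgae, chr11:73227177-73228635, plus strand: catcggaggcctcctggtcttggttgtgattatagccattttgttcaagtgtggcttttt
Gzma, chr13:110251676-110251735, minus strand: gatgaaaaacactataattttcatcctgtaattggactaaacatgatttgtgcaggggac
Prf1, chr10:60821367-60821426, plus strand: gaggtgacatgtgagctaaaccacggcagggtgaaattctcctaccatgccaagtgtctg
The Gzmb probe lies at chr14:51126432-51126491 on the minus strand and that of Cd8a at chr6:71396848-71396907 on the plus strand. Cd3e was read at chr9:44933516-44933575 and Cd4 at chr6:124894079-124894138, both on the minus strand, and Foxp3 at chrX:6028182-6028241 on the plus strand. Second probes of Cd3e and Cd4 and another probe of Cd8a were well above background on 0 of 15 arrays.

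Gzmb, which encodes granzyme B, was the member that separated adenoma from epithelium. It was 14.97-fold higher in untreated adenoma and 7.02-fold higher in treated adenoma than in epithelium, with every adenoma sample above every epithelium sample. On 3 of 8 epithelium arrays Gzmb was not well above background, and the folds depended on how low signals were treated: they were 7.15 and 3.52 under normexp background correction and 8.34 and 3.88 when fitted on the authors' deposited table, and both calls held in each. The CD3 chains, Cd4, Itgae and Gzma had no difference that passed the test in any of the 4 comparisons, and the brightest Cd8a probe had its lowest group mean in treated adenoma, which a second Cd8a probe did not. Foxp3 and Prf1 were too dim for a test. Levels in the following are log2 processed intensities relative to the array's 75th percentile, and differences are log2 differences of such levels with the standard error of the limma fit.

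**Figure D1:**
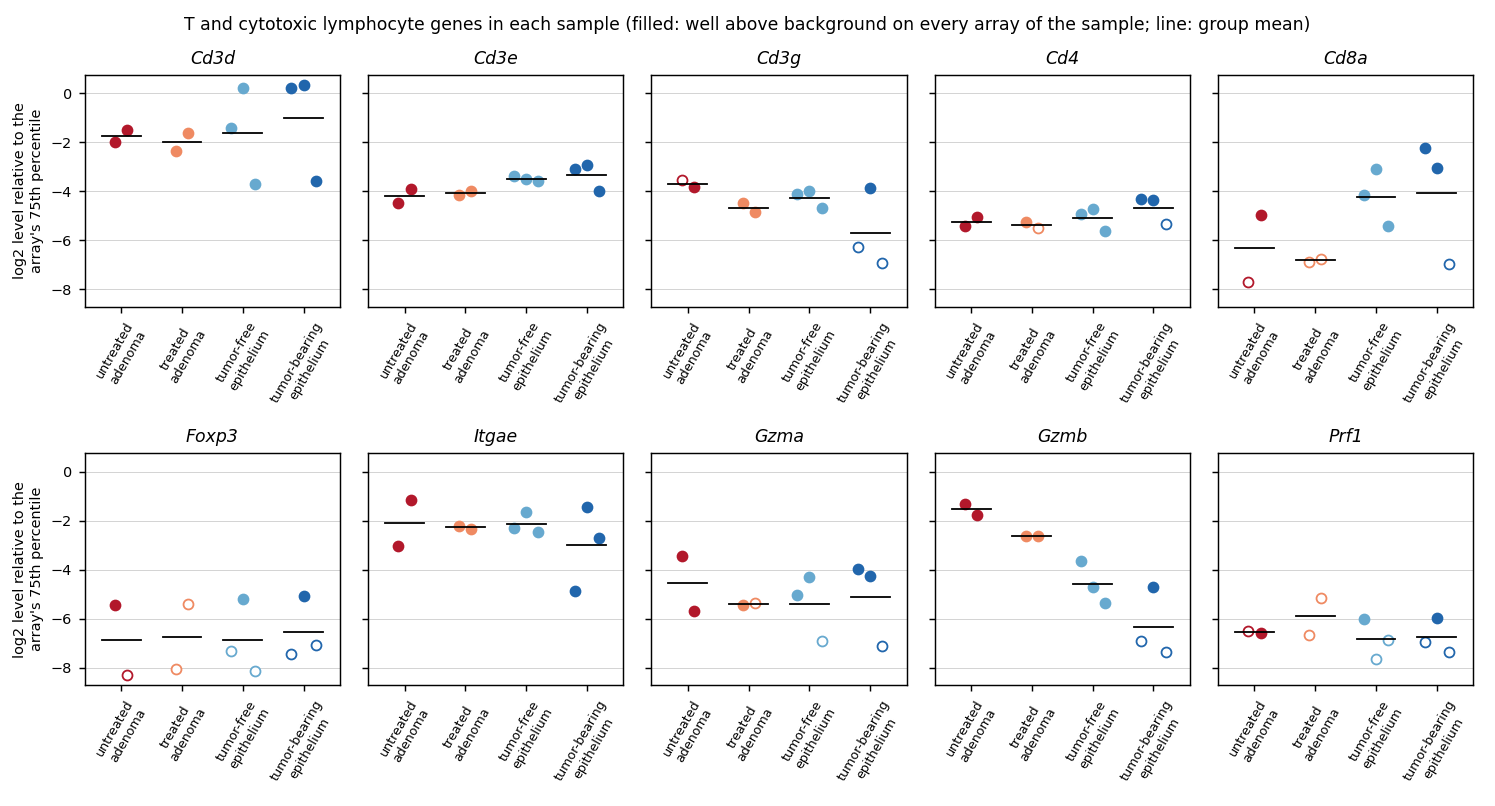
Log2 level of each gene, relative to the array's 75th percentile, in the 10 samples of the 4 groups. Filled points were well above background on every array of the sample, open points were not, and lines are group means. Gzmb is the 1 gene whose 4 adenoma points (-1.34 to -2.64) all lie above its 6 epithelium points (-3.67 to -7.36), while Cd3d spans -3.72 to 0.33 within epithelium.

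In untreated adenoma against epithelium, 8 of the 10 genes were detected well enough to be tested and 1 of them, Gzmb, was called higher at a limma adjusted p under 0.05 (Benjamini-Hochberg over all genes tested), where 5.76% of 18660 genes were called higher and 8.13% lower. Under scaling to probes detected on all arrays the higher and lower calls over all genes were 1363 and 1245, and 1658 and 1614 on the authors' deposited table, against 1075 and 1517 here. The 10 genes had a median difference of 0.053, beside -0.21 over all genes tested. In 2 of them, Gzmb and Cd3g, both adenoma samples lay above all 6 epithelium samples, which 13.1% of all tested genes did. For Cd3g the margin was smaller than the spot noise (-3.84 against -3.88). In 0 of the 10 both lay below all 6, against 18.9% of all tested genes. These counts are of the brightest probes, and on the second Cd8a probe both did lie below.

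In treated adenoma against epithelium, 7 genes were tested and 1, again Gzmb, was called higher by limma, where 6.53% of 18468 genes were called higher and 7.91% lower. Here too the majority turned, from 1206 higher and 1460 lower to 1485 and 1260 under scaling to probes detected on all arrays and to 1740 and 1669 on the authors' deposited table. The median difference of the 10 genes was -0.078, beside -0.15 over all genes tested. On the brightest probes Gzmb alone among the 10 lay above all epithelium samples in both treated samples, and 13.4% of tested genes did so. The second Itgae probe did so as well, at -5.12 and -5.14 in treated adenoma against at most -5.42 in epithelium. In 0 of the 10 both treated samples lay below all epithelium samples, against 16.5% of all tested genes. Both adenoma comparisons share the same 6 epithelium samples.

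Between treated and untreated adenoma, limma called 0 of the 7 genes tested, and 0 had an unadjusted p under 0.05. In simulated data the fit recovered 0% of genes changed by 2 on the log2 scale in this comparison, so such changes would go uncalled. Of all 17637 genes tested, 0.227% (40 genes) were called, 0.125% higher and 0.102% lower, and 2089 had an unadjusted p under 0.05. The median difference of the 10 genes was -0.21, beside 0.048 over all genes tested. Gzmb and Cd3g were lower in both treated samples than in both untreated ones, a separation that 20.7% of tested genes also had, while 25.9% separated upwards. Between tumor-bearing and tumor-free epithelium limma again called 0 of 7 tested, and 1 of these, Gzmb, had an unadjusted p under 0.05. There the background was 0% (0 of 17657 genes called, 463 at an unadjusted p under 0.05), the median difference of the 10 genes was 0.14 beside 0.014 over all tested genes, and none of the 10 separated the groups without overlap, which 4.2% of tested genes did upwards and 3.15% downwards.

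**Figure D2:**
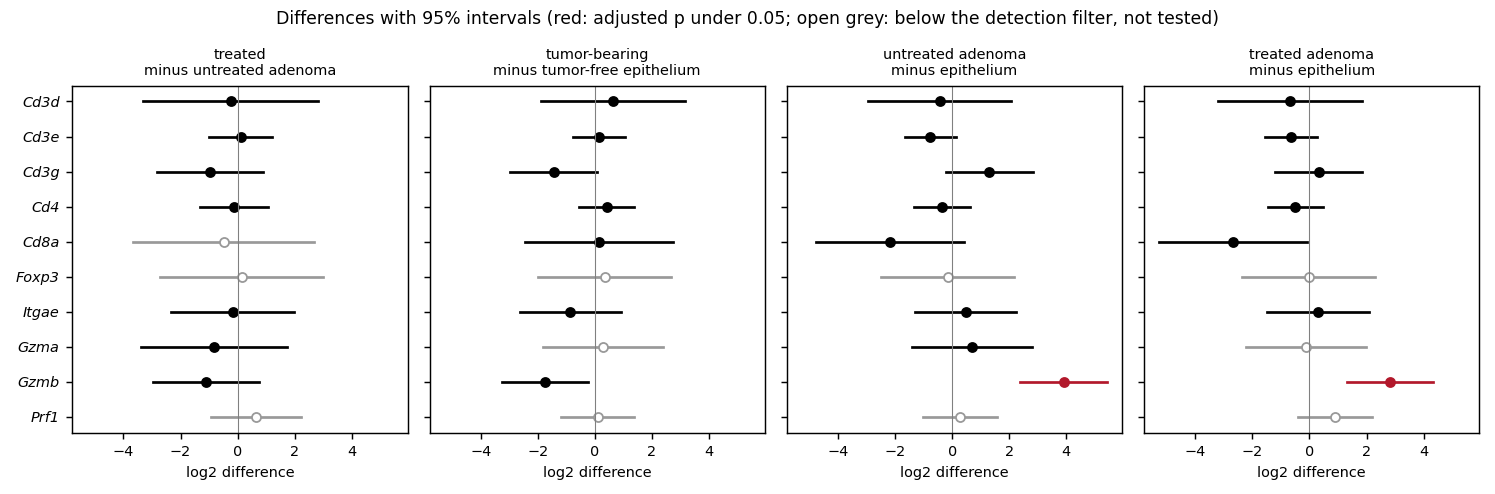
Log2 difference and 95% interval of each gene in the 4 comparisons. Red marks an adjusted p under 0.05, and open grey points were below the detection filter and not tested. The Gzmb intervals against epithelium run from 2.39 to 5.42 (untreated) and from 1.30 to 4.33 (treated), whereas the interval of Cd3d spans 0 in every panel.

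The CD3 chains stood apart from each other in how far they ranged. Cd3d, Cd3e and Cd3g encode the delta, epsilon and gamma chains that assemble with the T cell receptor, and the genes lie next to each other on chromosome 9. Cd3d was well above background on 15 of 15 arrays. Its level was -2.01 and -1.50 in untreated adenoma and -2.36 and -1.64 in treated adenoma. In tumor-free epithelium it was -1.41, 0.23 and -3.72, and in tumor-bearing epithelium 0.22, 0.33 and -3.56. The 4 adenoma samples thus lay inside the epithelium range, and the epithelium samples themselves split into high and low values within both groups, 16.6-fold from lowest to highest. Sample 3 of each epithelium group was the low one. The summed level of 5 markers of all leukocytes (Ptprc, Laptm5, Coro1a, Cytip and Arhgdib) was also at its lowest in those samples, 3.65 in the tumor-free and 5.80 in the tumor-bearing one, against 8.49 to 11.7 in the other 4 epithelium samples, and its part in the Cd3d values was not tested.

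Cd3d differed between treated and untreated adenoma by -0.24 ± 1.38 (limma adjusted p = 0.967), with a 95% interval of -3.32 to 2.83, and between the epithelia by 0.63 ± 1.13 (adjusted p = 0.998). The low samples lay on other scan dates than the rest of the epithelium. Within scan dates 1 and 2, untreated adenoma was lower than tumor-bearing epithelium by 2.25 and 2.26, and treated adenoma was lower by 2.59 on date 2 but higher by 1.86 on date 4, each from 1 or 2 arrays a group. Untreated adenoma was sample 1 on both dates 1 and 2, and tumor-bearing sample 1 lay on both, so date 2 adds no separate samples there. Pooled over dates, the limma differences from epithelium were -0.44 ± 1.13 and -0.68 ± 1.13, adjusted p = 0.820 and 0.714.

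Cd3e, whose epsilon chain pairs with the delta and with the gamma chain, was measured on all 15 arrays and moved little. It stood at -4.47 and -3.89 in untreated adenoma, at -4.16 and -3.97 in treated adenoma, at -3.40, -3.52 and -3.56 in tumor-free epithelium and at -3.10, -2.94 and -4.01 in tumor-bearing epithelium. Adenoma samples lay at the lower edge of the epithelium range and overlapped it. The difference was -0.76 ± 0.41 for untreated and -0.65 ± 0.41 for treated adenoma against epithelium (limma adjusted p = 0.232 and 0.312), and 0.11 ± 0.50 between the adenomas, with an interval of -0.99 to 1.21.

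Cd3g, the gamma chain, ranged 8.32-fold over the epithelium samples, more than Cd3e (2.1-fold) and less than Cd3d. It stood at -3.54 and -3.84 in untreated adenoma and at -4.48 and -4.85 in treated adenoma. In tumor-free epithelium it was -4.09, -3.99 and -4.70, while in tumor-bearing epithelium it was -6.29, -3.88 and -6.94, the first and last not well above background. Untreated adenoma was therefore the highest group, but its sample 2 (-3.84) and tumor-bearing sample 2 (-3.88) were closer than the spot noise. Untreated sample 1 rested on 1 unflagged array of 2. The low epithelium values were in tumor-bearing samples 1 and 3. Untreated adenoma exceeded epithelium by 1.29 ± 0.69 (limma adjusted p = 0.231) and exceeded treated adenoma by 0.98 ± 0.84 in the fit (difference of treated minus untreated -0.98, adjusted p = 0.703). Without array 2 of the tumor-bearing epithelium the first difference was 1.75 and passed (limma adjusted p = 0.0250), and without both arrays of the close pair it was 1.82 (adjusted p = 0.0411). The epithelia overlapped in Cd3g through tumor-bearing sample 2. Tumor-bearing minus tumor-free epithelium was -1.44 ± 0.69 (limma adjusted p = 0.998), and -2.22 without the close pair (adjusted p = 0.425).

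The coreceptor genes differed in how well they were detected. Cd4, the coreceptor of helper and regulatory T cells, was well above background on 13 arrays. It stood at -5.43 and -5.04 in untreated and -5.25 and -5.49 in treated adenoma. It stood at -4.92, -4.71 and -5.64 in tumor-free and at -4.30, -4.36 and -5.36 in tumor-bearing epithelium. All 4 groups overlapped in Cd4, with sample 3 of each epithelium group again the lowest of its group. No Cd4 difference passed, and that between treated and untreated adenoma was -0.13 ± 0.54 with a 95% interval of -1.32 to 1.05 (limma adjusted p = 0.951).

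Cd8a encodes the CD8 alpha chain, which intraepithelial lymphocytes also carry as a homodimer. Its brightest probe was well above background on 4 of 4 tumor-free and 3 of 4 tumor-bearing epithelium arrays, on 1 of 3 untreated adenoma arrays and on 0 of 4 treated adenoma arrays. The level was -7.72 and -4.95 in untreated adenoma and -6.89 and -6.76 in treated adenoma. In epithelium it was -4.14, -3.11 and -5.42 in tumor-free and -2.24, -3.05 and -6.97 in tumor-bearing mice. Of 6 epithelium samples 5 lay above both treated adenoma samples, and tumor-bearing sample 3 fell among the adenoma values, so the groups overlapped. The difference of treated adenoma from epithelium was -2.67 ± 1.16 (limma adjusted p = 0.157), against a treated level that no array measured on this probe. For untreated adenoma the difference was -2.18 ± 1.16 (limma adjusted p = 0.234).

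Whether Cd8a passed depended on tumor-bearing array 4, the only array of sample 3, and on the averaging of close arrays. Without array 4 both differences passed, at -2.90 for untreated (limma adjusted p = 0.0312) and -3.39 for treated adenoma (adjusted p = 0.0167). They also passed with array 4 when all 15 arrays were counted as samples, at -2.72 in each, although close arrays are then not separate samples. A second Cd8a probe, at chr6:71395267-71395326, was well above background on 5 arrays: 1 of treated adenoma, 2 of tumor-free and 2 of tumor-bearing epithelium. It stood at -8.21 and -8.72 in untreated and -7.07 and -5.70 in treated adenoma, at -3.51, -3.26 and -6.51 in tumor-free and at -5.37, -3.35 and -4.57 in tumor-bearing epithelium. On that probe untreated adenoma was the lowest group, with a difference of 2.08 in treated minus untreated adenoma, where the brightest probe had -0.49. Tumor-free sample 3 was the low epithelium sample, while tumor-bearing sample 3 was not. It did not pass the detection filter in any comparison and has no test.

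**Figure D3:**
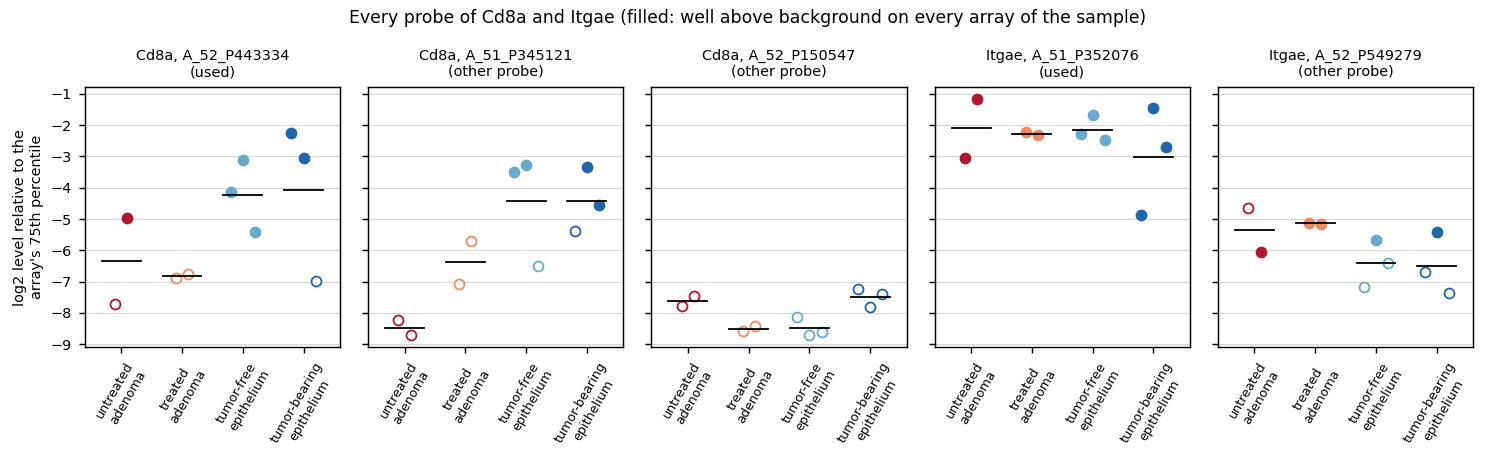
Log2 level of every probe of Cd8a and Itgae in the 10 samples, relative to the array's 75th percentile. Filled points were well above background on every array of the sample, and lines are group means. The Cd8a probe A_52_P443334 and its second probe place most epithelium samples above the adenomas but disagree on tumor-bearing sample 3 (-6.97 against -4.57), and the other Cd8a probe, A_52_P150547, was not well above background on any array.

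Foxp3, the transcription factor that defines regulatory T cells, was well above background on 6 of 15 arrays and on no complete group, so it was not tested. It stood at -5.46 and -8.29 in untreated adenoma, -8.06 and -5.42 in treated adenoma, -7.34, -5.20 and -8.12 in tumor-free and -7.46, -5.08 and -7.10 in tumor-bearing epithelium. Each group held 1 sample between -5.08 and -5.46 and all others at or below -7.10. The group means lay between -6.89 and -6.55.

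Itgae encodes the integrin alpha E chain (CD103), by which intraepithelial T cells and some dendritic cells hold to E-cadherin, and was well above background on 15 of 15 arrays. It stood at -3.05 and -1.16 in untreated adenoma and at -2.23 and -2.33 in treated adenoma. It stood at -2.30, -1.67 and -2.47 in tumor-free and at -4.87, -1.45 and -2.69 in tumor-bearing epithelium. The groups overlapped throughout, and the low value of tumor-bearing sample 1 was shared by both its arrays, which differ by less than spot noise. Differences from epithelium were 0.47 ± 0.80 for untreated and 0.30 ± 0.80 for treated adenoma (limma adjusted p = 0.716 and 0.828). A second Itgae probe, well above background on 9 arrays, gave 1.11 and 1.32 in these comparisons (limma adjusted p over all probes 0.275 and 0.199).

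Of the granule genes, Gzma was tested in 2 comparisons, Prf1 in none and Gzmb in all 4. Gzma encodes granzyme A, a tryptase of cytotoxic and natural killer cells, and was well above background on 11 arrays. It stood at -3.44 and -5.69 in untreated adenoma and at -5.44 and -5.36 in treated adenoma. In tumor-free epithelium it was -5.03, -4.30 and -6.92, and in tumor-bearing epithelium -4.00, -4.26 and -7.11. All groups overlapped, and sample 3 of each epithelium group was the lowest, as for Cd3d, Cd4 and Cd8a. The Gzma difference was 0.70 ± 0.95 for untreated adenoma against epithelium (limma adjusted p = 0.642) and -0.83 ± 1.16 for treated against untreated adenoma (adjusted p = 0.835). The other comparisons of Gzma did not meet the detection filter.

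Prf1, which encodes perforin, was well above background on 6 arrays and was not tested. It stood at -6.50 and -6.59 in untreated adenoma, -6.67 and -5.15 in treated adenoma, -6.02, -7.65 and -6.89 in tumor-free and -6.97, -5.96 and -7.36 in tumor-bearing epithelium. The groups overlapped, and no group had Prf1 well above background on all its arrays.

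Gzmb encodes granzyme B, the aspartate-directed protease that starts cell death in targets of cytotoxic lymphocytes, and mouse mast cells also express it. It stood at -1.34 and -1.76 in untreated adenoma, both well above background on every array. It stood at -2.64 and -2.64 in treated adenoma, again on every array. In tumor-free epithelium it was -3.67, -4.71 and -5.37, and in tumor-bearing epithelium -6.90, -4.72 and -7.36, where 1 of 4 arrays was well above background. The order of the group means was untreated adenoma (-1.55 ± 0.29, SD, n = 2), treated adenoma (-2.64, n = 2), tumor-free epithelium (-4.58 ± 0.86, n = 3) and tumor-bearing epithelium (-6.33 ± 1.41, n = 3). The adenoma samples did not overlap with epithelium, the adenoma groups did not overlap with each other, and the epithelia overlapped through sample 2.

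Untreated adenoma exceeded epithelium in Gzmb by 3.90 ± 0.68 (limma adjusted p = 0.00435), and treated adenoma by 2.81 ± 0.68 (limma adjusted p = 0.0207). The lower level in treated than in untreated adenoma, -1.09 ± 0.84, did not pass (limma adjusted p = 0.655), with a 95% interval of -2.95 to 0.76. Tumor-bearing epithelium was lower than tumor-free epithelium by 1.74 on the log2 scale, a difference of -1.74 ± 0.68 that did not pass either (limma adjusted p = 0.998), and 3 of 4 tumor-bearing arrays were not well above background. That difference was -0.54 under normexp background correction and -0.90 when fitted on the authors' deposited table. Without the close pair of arrays these 4 values were 4.27, 3.18, -1.09 and -2.61 (limma adjusted p = 0.00289, 0.00913, 0.579 and 0.447).

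The Gzmb call in untreated adenoma was lost without sample 1 of that group, and the call in treated adenoma without either of its samples. Without untreated sample 1 (arrays 1 and 2) the difference was 3.70 and its limma adjusted p 0.0543, and without treated sample 1 or treated sample 2 it was 2.81 in each case, with adjusted p = 0.134 and 0.108. On scan dates shared with tumor-bearing epithelium only 1 of the 4 tumor-bearing arrays, on date 1, had Gzmb well above background. With the others set at the higher of their own signal and the lowest signal well above background, untreated adenoma was higher by 3.47 (date 1) and 4.25 (date 2), and treated adenoma by 2.94 (date 2) and 2.52 (date 4), each from 1 or 2 arrays a group and with no test. The values 3.47 and 4.25 share untreated sample 1 and tumor-bearing sample 1, so they are not from separate samples. Treated adenoma was below untreated adenoma by 1.31 on date 2, a difference of -1.31, and by 0.89 on date 5 (-0.89).

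Markers of other leukocytes were set beside Gzmb because it is not exclusive to T cells. The summed level of 9 mast cell genes (Cpa3, Kit and mast cell proteases among them) was 3.59 to 4.81 in untreated adenoma, 1.20 to 1.21 in treated adenoma, 2.25 to 4.40 in tumor-free and 2.11 to 4.80 in tumor-bearing epithelium. The sum was thus lowest in treated adenoma, where Mcpt2 and Tpsb2 were well above background on no array, and that of untreated adenoma overlapped epithelium. A sum weighs the brightest genes of its list most. In epithelium the mean log2 levels of Cpa3, Mcpt1, Mcpt2 and Mcpt4 were -6.22, -4.55, -7.80 and -4.93, so the sum there came mainly from other genes of the list. It is therefore no measure of mast cell content. Gene by gene, limma called 3 of 7 mast cell genes tested higher in untreated adenoma than in epithelium. These were the proteases Mcpt1 (5.43 ± 1.02, limma adjusted p = 0.00619), Mcpt4 (4.82 ± 0.79, adjusted p = 0.00305) and Mcpt2. Mcpt2 was at least 6.71-fold higher (fitted difference 4.47 ± 0.46, limma adjusted p = 0.000249). The median difference of the 7 was 3.34. In treated adenoma 0 of 5 tested were called higher than epithelium and 1, Kit, lower (-2.36 ± 0.46, limma adjusted p = 0.00705). Between the adenomas 1 of 6, Mcpt2, was called, at least 7.72-fold lower in treated adenoma (fitted difference -5.14 ± 0.57, limma adjusted p = 0.0091). Cma1, of the same list, went the other way. It stood at -1.30 to -0.37 in treated and -3.92 to -2.54 in untreated adenoma, a difference of 2.40 ± 1.84 that did not pass (limma adjusted p = 0.656). Of 5 neutrophil genes measured, all 5 were called higher by limma in each adenoma group than in epithelium, with summed levels of 16.0 to 46.5 in adenoma and 0.0836 to 0.187 in epithelium. The all-leukocyte sum was 9.81 to 12.0 in the adenomas and 3.65 to 11.7 in epithelium. The summed level of 8 B and plasma cell genes was 0.724 to 1.34 in adenoma and 24.5 to 52.2 in epithelium. The part of these cell types in the Gzmb values was not tested.

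**Figure D4:**
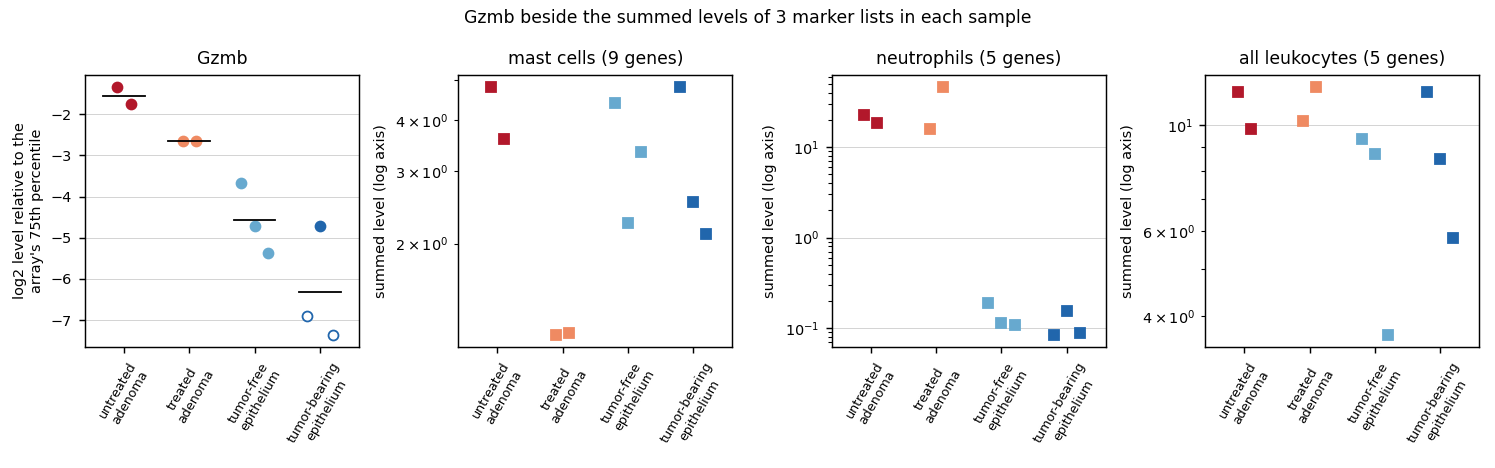
Log2 level of Gzmb and summed levels (log axis) of 9 mast cell, 5 neutrophil and 5 all-leukocyte genes in the 10 samples. A sum weighs the brightest genes of its list most. The mast cell sum is lowest in treated adenoma (1.20 to 1.21), the neutrophil sum separates adenoma (16.0 to 46.5) from epithelium (0.0836 to 0.187), and the leukocyte sum of tumor-bearing epithelium (5.80 to 11.7) reaches into the adenoma range while that of tumor-free epithelium (3.65 to 9.35) stays below it.

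The upstream sequences of the granule genes are shown because the products of the 3 genes are used together in the cell. RUNX factors and T-box factors are known regulators of cytotoxic genes, so the 250 bases before the start site were searched on both strands for the core letters TGTGGT (RUNX, reverse complement ACCACA) and GGTGTGA (T-box, reverse complement TCACACC). A window was at hand for 8 of the 10 genes, not for Cd4 and Itgae. The RUNX letters were present in the windows of Gzma, Gzmb and Prf1 and in none of the windows of Cd3d, Cd3e, Cd3g, Cd8a and Foxp3, and 14.05% of all 32851 mouse windows of that length hold them. The T-box letters were in no window of these genes and in 3.33% of all windows. The sequences are from RefSeq on GRCm38.p6, 5′ to 3′ in the sense of the gene, with RUNX letters in capitals.
Gzmb, chr14:56262335-56262584, minus strand: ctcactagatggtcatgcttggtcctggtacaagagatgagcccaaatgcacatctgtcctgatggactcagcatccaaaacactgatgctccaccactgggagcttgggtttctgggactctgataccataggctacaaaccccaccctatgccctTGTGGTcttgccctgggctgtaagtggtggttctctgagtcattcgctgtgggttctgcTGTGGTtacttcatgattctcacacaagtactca
Gzma, chr13:113100982-113101231, minus strand: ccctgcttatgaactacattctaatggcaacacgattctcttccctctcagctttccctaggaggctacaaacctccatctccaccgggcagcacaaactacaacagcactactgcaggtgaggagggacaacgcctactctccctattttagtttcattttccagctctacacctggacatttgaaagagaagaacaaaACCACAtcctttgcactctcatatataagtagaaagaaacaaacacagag
Prf1, chr10:61297586-61297835, plus strand: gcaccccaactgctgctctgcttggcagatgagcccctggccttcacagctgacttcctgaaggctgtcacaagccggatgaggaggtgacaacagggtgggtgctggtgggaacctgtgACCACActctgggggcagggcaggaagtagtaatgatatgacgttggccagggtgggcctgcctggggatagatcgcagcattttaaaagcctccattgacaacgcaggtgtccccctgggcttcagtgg
Gzmb held 2 matches, beginning 93 and 34 bases before the start site, Gzma 1 at 50 bases and Prf1 1 at 130 bases. The start site is the end of the window, and for Prf1, Cd3d and Cd3e it lies inside the annotated gene, which for Prf1 begins at chr10:61297751. A match is a description of the letters and does not say that a factor binds.

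Further genes of T and cytotoxic cells were read from 4 lists with 79 genes in all, of which 78 were on the array. Against epithelium, 60 were tested in untreated adenoma and 8 were called higher and 2 lower by limma (16.7% of those tested, against 13.9% of all genes tested). In treated adenoma 53 were tested, of which 7 were called higher and 2 lower (17.0%, against 14.4%). In treated against untreated adenoma limma called 0 of 58, with 7 at an unadjusted p under 0.05. Over all genes tested there, 40 of 17637 were called and 2089 had an unadjusted p under 0.05. In tumor-bearing against tumor-free epithelium limma called 0 of 49, with 0 at an unadjusted p under 0.05. Over all genes tested, 0 of 17657 were called there and 463 had an unadjusted p under 0.05.

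In the list of 20 T cell receptor signalling genes, 3 of 16 tested were higher in untreated and 3 of 15 in treated adenoma, and none was lower. Tcf7, which encodes TCF1, a transcription factor of T cells and also a nuclear effector of Wnt signalling, rose by 3.45 ± 0.45 in each (limma adjusted p = 0.000849 and 0.000663). Lcp2, the adaptor SLP-76 of T cells, mast cells and platelets, rose by 1.94 ± 0.48 and 2.23 ± 0.48 (limma adjusted p = 0.0229 and 0.0111). Bcl11b, a factor of T cell commitment, rose in untreated adenoma by 1.39 ± 0.41 (limma adjusted p = 0.0484), and Thy1, a surface protein of T cells and fibroblasts, in treated adenoma by 1.68 ± 0.50 (limma adjusted p = 0.0495). The list's median difference was 0.96 and 0.60 in these comparisons.

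In the list of 18 helper and regulatory T genes, of which 17 were on the array, 2 of 12 tested were higher and 0 lower in untreated adenoma, and 1 of 9 was higher and 0 lower in treated adenoma. The genes called encode cytokines of helper and innate lymphocytes. Il17a was not well above background on any epithelium array. It was at least 5.78-fold higher in untreated adenoma (fitted difference 4.58 ± 0.62, limma adjusted p = 0.00107). Il22, also not well above background in epithelium, was at least 1.87-fold higher in untreated and at least 10.0-fold higher in treated adenoma. Its fitted differences were 2.88 ± 0.70 and 5.30 ± 0.70 (limma adjusted p = 0.0225 and 0.000739).

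In the list of 24 cytotoxic and natural killer genes, 3 of 15 tested were higher and 1 lower in untreated adenoma, and 2 of 13 higher and 1 lower in treated adenoma. Gzmc, a further granzyme, rose by 2.87 ± 0.73 and 3.28 ± 0.73 (limma adjusted p = 0.0261 and 0.0132), although 1 of 8 epithelium arrays measured it. Cd244a, the receptor 2B4 of natural killer cells and some myeloid cells, rose by 3.87 ± 0.92 and 4.92 ± 0.92 (limma adjusted p = 0.0198 and 0.00536). Eomes, a T-box factor of cytotoxic cells, was at least 1.89-fold higher in untreated adenoma (fitted difference 2.50 ± 0.70, limma adjusted p = 0.0405). Nkg7, a granule membrane protein of cytotoxic lymphocytes, fell by 2.36 ± 0.68 and by 2.91 ± 0.68 (limma adjusted p = 0.0446 and 0.0175), opposite to the direction of Gzmb.

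In the list of 17 genes of intraepithelial residence and homing, 1 of 17 tested was lower in untreated adenoma, and 1 of 16 higher and 1 lower in treated adenoma. Ccr9, the gut-homing receptor for the chemokine CCL25, fell by 1.84 ± 0.42 in untreated adenoma (limma adjusted p = 0.0169). Cxcr3, the receptor for CXCL9 to CXCL11 on activated T cells, fell by 2.41 ± 0.61 in treated adenoma (limma adjusted p = 0.0252), and Ahr, a ligand-activated factor needed by intraepithelial lymphocytes, rose by 1.23 ± 0.36 there (adjusted p = 0.0437).

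The genes of these lists with the largest moderated t between the adenomas, in either direction, were Ccl25 (2.09 ± 0.67 in treated minus untreated adenoma), Il22 (2.42 ± 0.86) and Il17a (-1.85 ± 0.76), with limma adjusted p = 0.281, 0.317 and 0.381. Il17a was well above background on 1 of 4 treated arrays and on 3 of 3 untreated arrays. Between the epithelia they were Itgb7 (1.04 ± 0.50), Il15 (-1.24 ± 0.69) and Cxcl9 (1.75 ± 1.05), each with a limma adjusted p of 0.998 in tumor-bearing minus tumor-free epithelium.

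Calls of Tcf7 in both adenoma comparisons, of Il17a in untreated and of Il22 in treated adenoma held under every alternative that tested them. The other 8 calls in untreated adenoma (Lcp2, Bcl11b, Il22, Gzmc, Cd244a, Eomes, Nkg7 and Ccr9) were lost without untreated sample 1, with limma adjusted p from 0.136 to 0.263. In treated adenoma, Lcp2, Thy1, Gzmc, Cd244a, Cxcr3 and Ahr were lost without treated sample 2. Nkg7 was lost without treated sample 1, and so were Gzmc, Cxcr3 and Ahr, with differences of 3.51, -2.10 and 1.26 there. Each of these fits leaves 1 treated sample. Leaving out the close pair of arrays also lost calls in treated adenoma, among them Gzmc, Cxcr3 and Ahr (limma adjusted p = 0.0551, 0.0887 and 0.127). The calls differed in how many alternatives kept them. In untreated adenoma Bcl11b was called in 15 of 31, Nkg7 in 18 of 31, Eomes in 19 of 28 and Lcp2 in 29 of 31. In treated adenoma Thy1 was called in 13 of 31, Ahr in 17 of 31 and the others in 27 or more of 30 or 31.

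**Figure D5:**
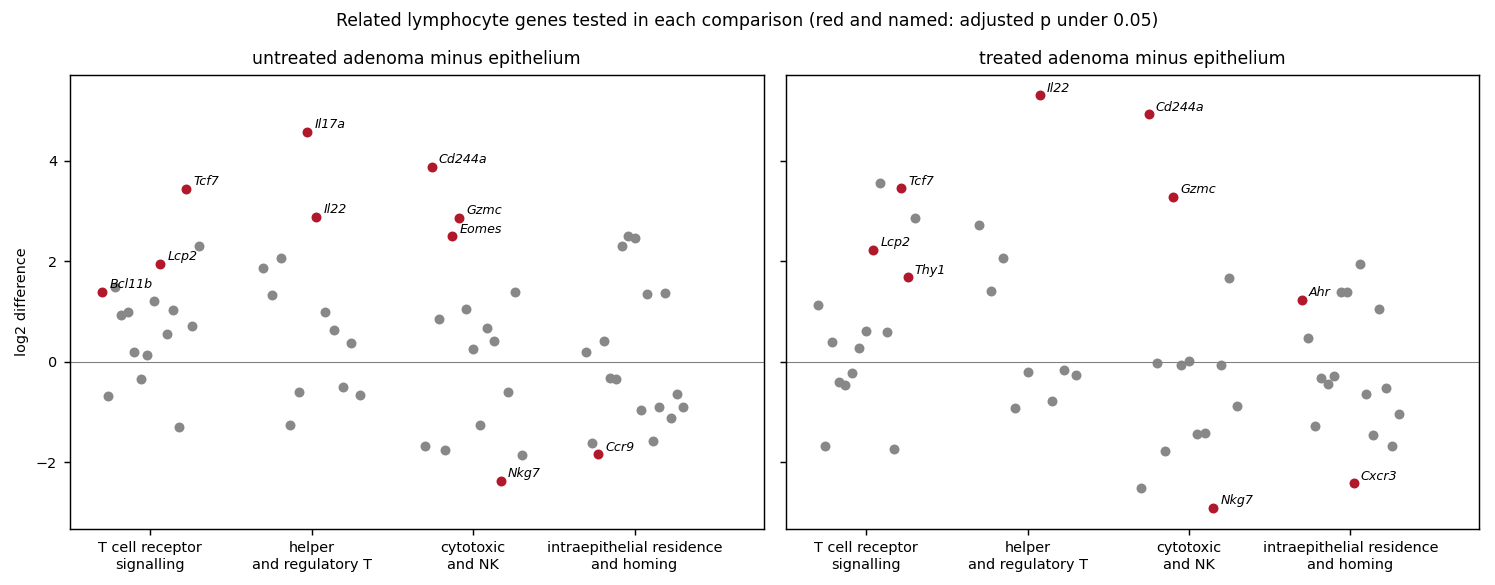
Log2 differences from epithelium of the genes tested in the 4 lists, with genes at an adjusted p under 0.05 in red and named. Left, untreated adenoma (8 higher, 2 lower). Right, treated adenoma (7 higher, 2 lower). Nkg7 lies lowest in both panels (-2.36 and -2.91), and both panels share the same epithelium samples.

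The genes whose levels ran most like each member over the 10 samples were taken from 14355 genes well above background on at least 8 arrays. Such likeness describes these samples only, since they share groups and scaling and the highest of so many correlations is bound to be high. For Gzmb these were Tnnt2 (Pearson r = 0.982, Spearman rho = 0.988), Sh2d5 (0.981 and 0.952) and Hp (0.977 and 0.976). For Cd3d they were Pacs2 (0.975 and 0.964), Pkp3 (0.972 and 0.903) and Relb (0.970 and 0.903), and for Cd8a they were Kiz (0.982 and 0.952), Tjp3 (0.977 and 0.952) and Sptlc2 (0.972 and 0.903). No member was among another member's 3 nearest genes. For Gzma the nearest genes were Ptges, Il2rb and Pusl1 (Pearson r = 0.930, 0.910 and 0.906), of which Il2rb, a receptor chain for interleukins 2 and 15 on cytotoxic cells, is the 1 gene in these triplets that belongs to the lists above. Cd3e ran closest to Dand5, Nfatc2 and Kash5 (0.988, 0.981 and 0.981), Cd3g to Gldc, Lrrc15 and Gstt4 (0.961, 0.944 and 0.941), Cd4 to Uqcc3, Ankrd9 and Nkx6-1 (0.973, 0.959 and 0.957) and Itgae to Rrnad1, Atad3aos and Tlr7 (0.932, 0.932 and 0.916).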

How the data were processed

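RNA from microdissected mouse colon cells was amplified linearly, labelled with Cy3 and hybridised, 1 array a sample, per the labels' protocols. Agilent Feature Extraction 9.5.3 extracted the scans, per the submitters' processing notes. The deposited scanner files give a processed intensity per spot, which per the file headers is background-subtracted and not normalized between arrays. The authors' deposited value table holds log2 values and served as an alternative only.

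Levels are log2 processed intensities of non-control probes, without outlier-flagged spots, minus the array's 75th percentile. That percentile was taken over all non-control spots of the array, flagged ones included. Probes were named from a RefSeq gene table by accession (22951), symbol (6659) or synonym (3109), 1919 kept the file's own name and 6536 had none. Each probe without a name counted as a gene of its own in the counts over all genes. Arrays of 1 group that differed by less than the spot noise were averaged, which left 10 samples. Differences were fitted with limma 3.58.1 (R 4.3.3) over all 4 groups, as a two-sided test, adjusted by Benjamini-Hochberg and called under 0.05. The fit had 6 residual and 4.31 prior degrees of freedom. Tests took genes that 1 of the groups compared showed well above background on all its unflagged arrays (2 or more). The number of arrays limits the precision.

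A fold is called "at least" where no array of 1 side had any probe of the gene well above background, which was then set per array at the higher of its own signal and the lowest signal well above background. The adjusted p beside such a fold belongs to the fitted difference, which takes dim signals as they are, and not to the bound. A gene of this kind passed the detection filter only through its brighter side, so hardly any call in the other direction was open to it. A summed level is the sum over a list's genes of 2 to the power of the log2 level. All members were described with all their probes. Of the related lists, every called gene and, per comparison, the 3 measured on both sides with the largest moderated t in either direction were named; 1 gene of these lists is not reported here. Likeness took the 3 genes with the highest Pearson r. The members and lists were chosen with earlier results of these data known. The fit was tested on simulated data with 200 genes changed. At a log2 change of 2 it recovered 0% of them between the adenomas and 8.5% between the epithelia. Against epithelium it recovered 0% in untreated and 12% in treated adenoma. At a change of 3 these shares were 42.5%, 66%, 61% and 59.5%. A missing call therefore does not show that a gene was unchanged. Alternatives covered background correction, normalization, filters, probes, blocks and samples left out.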

Additional observations from a re-analysis of the deposited data

How the results depend on the processing

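Against epithelium, 1 member (Gzmb) was called in each adenoma comparison. Requiring detection in every group compared left Gzmb untested and gave 0 calls in both. Counting all 15 arrays as samples, alone, with slide as a random block or with scan date as a random block (added after seeing the data), gave 3 calls in untreated adenoma (Cd3e, Cd8a and Gzmb) and 2 in treated adenoma (Cd8a and Gzmb). With the replicate number as a block on all arrays the counts were also 3 (Cd3g, Cd8a and Gzmb) and 2. All these fits on 15 arrays count arrays that differ by less than spot noise as separate samples. Their adjusted p-values are therefore too small, and their higher counts are not further evidence. The numbers do not pair the arrays (correlations of same-numbered deviations -0.245 to 0.357, and 8 of 15 arrays correlated best with their own number). Without the close pair across groups the counts were 2 (Cd3g added) and 1. Leaving out 1 array gave 1 to 2 calls in untreated and 0 to 2 in treated adenoma. Leaving out all arrays of untreated sample 1, or of treated sample 2, gave 0. The 2 other comparisons had 0 members called by limma in each setting run. Of 1235 member values under alternatives, 16 passed where the reported one did not, most of them on 15 arrays, and 3 no longer passed. None with a call on either side changed sign, and 85, called on neither side, did. The Gzmb difference ran from 2.84 to 4.31 (untreated) and from 1.81 to 3.21 (treated against epithelium), lowest under normexp correction. Scaling to probes detected on all arrays moved the median of all genes in untreated adenoma from -0.21 to 0.032. Relative to that median the Gzmb difference stays the same. All-gene counts rose from 40, 2592 and 2666 to 1767 to 2641, 6961 to 7347 and 7000 to 7770 with 15 arrays, and detection in every group gave 1, 1503 and 1474. Leaving out 1 array or sample gave 1 to 71, 756 to 4213 and 1136 to 3997. Normexp gave 90 and leaving out the close pair 3 in the first and 1656 in the second. The related lists had 2 to 25 and 4 to 29 calls against epithelium (10 and 9 as reported) and 0 to 7 between adenomas. Scan date as a fixed block could be fitted only between the adenomas, since tumor-free arrays lie on dates of their own; the Gzmb difference there was -0.82. Where a call was lost, the cause was not tested.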
